A study of Homo sapiens with 12 samples.

Results

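Raji cells in which FBXO11 had been knocked out were compared with wild-type Raji cells, over 4 knockout and 4 wild-type libraries of RNA sequencing. These 8 libraries were taken from the 12 of the series by the cell line and genotype in their labels, and no measured value entered the choice. Raji is an established line from a Burkitt lymphoma, a tumour of germinal centre B cells. The knockout cells had been transduced with LentiCRISPR v2, selected with puromycin and grown from single cells by serial dilution, and clones were screened for loss of FBXO11 protein and by sequencing at the guide site. Whether the wild-type cells carried a control vector or saw puromycin, and which guide and clone each knockout library (named 14, 41, 12 and 13, here replicates 1 to 4) represents, is not stated in the sources used here. A clone differs from the parental population also by having passed through 1 cell, which in this design cannot be told apart from the loss of FBXO11. The other 4 libraries, of Daudi cells, entered the model only to help estimate the spread between replicates.

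FBXO11 is an F-box protein, the part of an SCF ubiquitin ligase that recognises the proteins to be tagged for the proteasome. Its best known substrate in B cells is BCL6, a BTB zinc-finger repressor that germinal centre B cells need and that holds down genes of the DNA damage response, of B cell activation and of plasma cell differentiation. Loss of FBXO11 acts on the BCL6 protein, which RNA sequencing does not measure, so that transcripts report only on what follows in the cell.

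Both guides are shown because their place decides what the transcript of FBXO11 can tell. Each is written 5′ to 3′ in lower case, followed in capitals by the PAM that comes next in the transcript sequence of GENCODE release 29 (GRCh38):
guide 1: cctgctgaacagtatcttcAGG
guide 2: cttctcttacttgctggaacAGG
Guide 1 matched chr2:47838980-47838998 and guide 2 matched chr2:47838926-47838945, both on the minus strand, which is the coding strand of the gene. The 2 sites lie inside exon 4 of 23, a coding exon of 145 bases. In the FBXO11-202 transcript the cuts would fall at codons 155 and 173 of 927. Small insertions or deletions there can leave the rest of the transcript to be counted, so the level of FBXO11 RNA is no check of the knockout. Whether they change that level was not tested.

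FBXO11 (ENSG00000138081) was at 118, 68.6, 88 and 83 CPM in wild type and 72.1, 70.6, 34.1 and 47.9 CPM in knockout. CPM are counts scaled to a library of 1M after correction for composition, and values are given throughout in the order of replicates 1 to 4. Knockout replicates 1 and 2 lay within the range of wild type, and replicates 3 and 4 lay below it. The difference (log2 fold change -0.67, SE 0.25, adjusted p = 0.208 in edgeR's quasi-likelihood test with Benjamini-Hochberg adjustment) did not pass the threshold of 0.05, nor did an exact two-sided permutation test (p = 0.0857). On this unstranded library, 26.9% of the exonic bases of FBXO11 also belong to a gene on the other strand.

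BCL6 (ENSG00000113916) was at 302, 426, 454 and 442 CPM in wild type and 191, 295, 239.6 and 237 CPM in knockout. All 4 knockout libraries lay below the lowest wild-type library, so that the transcript of the substrate fell by 0.75 on the log2 scale (SE 0.17, adjusted p = 0.0352). The exact permutation test gave p = 0.0286, the smallest that 4 against 4 libraries allow, and it takes the 8 libraries as independent. With wild-type replicates 3 and 4, which were nearly alike, summed as 1 library, the adjusted p of edgeR's test was 0.114. With knockout replicates 1 and 2 summed and 3 and 4 summed it was 0.137. The call was lost without WT 2, 3 or 4, KO 1, 3 or 4 or Daudi KO 1 or 2 (adjusted p 0.0589 to 0.117), where WT and KO with their numbers name the wild-type or knockout replicates that, left out 1 at a time, took the adjusted p past 0.05. BCL6 is known to bind near its own start and to repress itself, and the letters of its consensus, TTCCTAGAA, searched on both strands, are in the RefSeq sequence around the first listed start of BCL6, as their reverse complement. They are shown in capitals with the bases on each side, on the strand of the gene, with the only other called gene whose sequence held them:
BCL6: tgcaagaagtTTCTAGGAAaggcc
SHROOM3: ggcggggctaTTCTAGGAActattttcta
The first lies at chr3:187745419-187745442 on the minus strand, 37 to 45 bases after the start, and the second at chr4:76435025-76435053 on the plus strand, 194 to 186 bases before the start (GRCh38.p14). In windows of 300 bases (250 before and 50 after the start) the motif stood in 1 of 89 risen genes, 1 of 167 fallen genes and 21 of all 9304 tested genes with a sequence (0.226%). A looser form, TTCNNNGAA, stood in 5.62% of risen, 9.58% of fallen and 6.42% of all tested genes.

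The groups differed in a small part of the transcriptome, and in this test more genes fell than rose. Of 12027 genes tested, 111 rose (0.923%) and 202 fell (1.68%) at an adjusted p under 0.05, and 189 of these 313 changed at least 2-fold (49 up and 140 down). The median over all genes tested was 0.01 on the log2 scale. These 2 shares are the background against which counts in gene groups are read below. The number of calls depended on single libraries. Leaving out each of the 12 libraries in turn gave 37 to 159 risen and 95 to 269 fallen genes. Counts lower by over 1.5 times came without wild-type replicates 2, 3 or 4 or knockout replicates 1, 2 or 3 for risen genes (37 to 64), and without wild-type replicates 3 or 4 or knockout replicates 1, 2 or 3 for fallen genes (95 to 132). Against the 313 calls, 116 genes (31 risen, 85 fallen) were called in all 12 of these fits. In all, 72 genes (25 risen, 47 fallen) were called under every alternative tried.

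**Figure D1:**
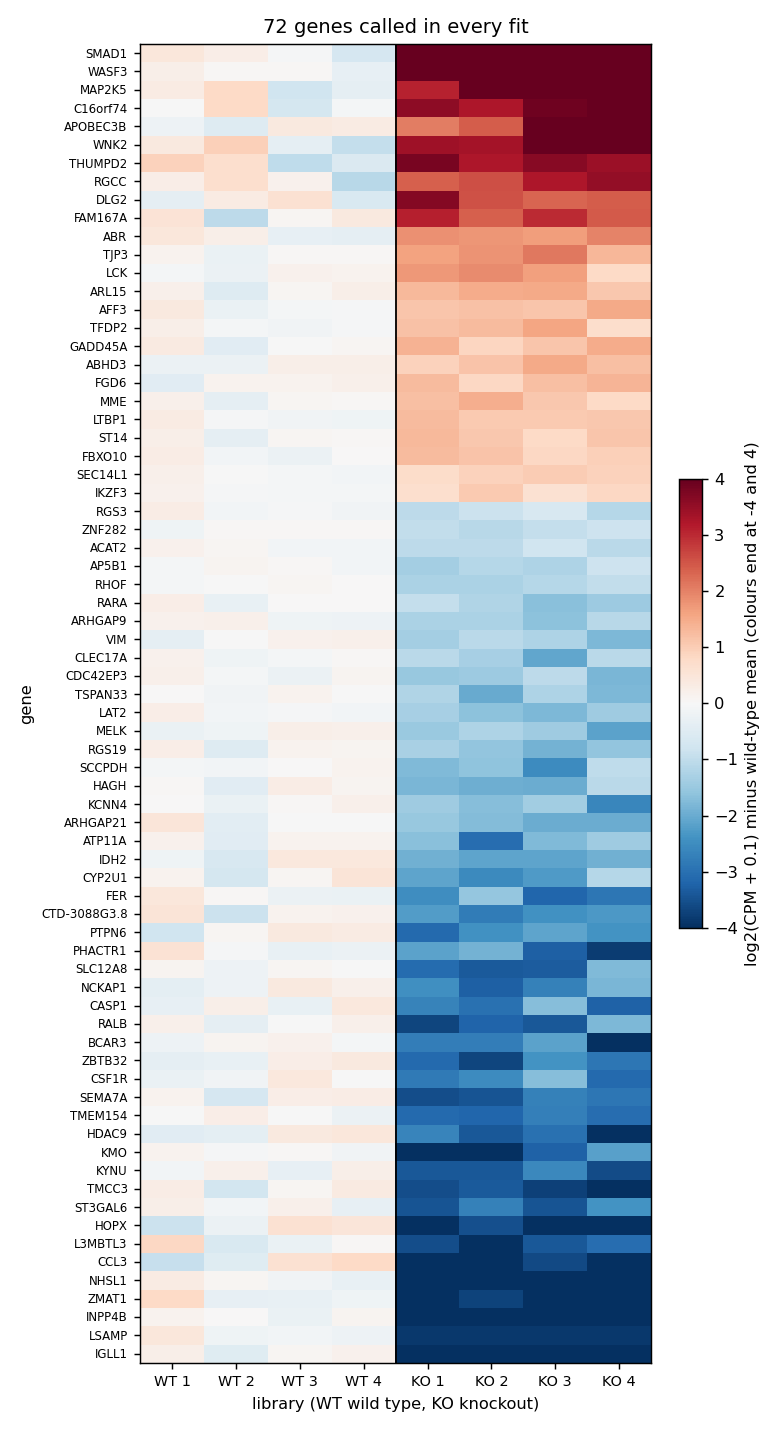
The 72 genes called under every alternative, as rows, in the 8 Raji libraries, as columns; colour gives log2(CPM + 0.1) minus the mean of the 4 wild-type libraries, red higher and blue lower, ending at -4 and 4. Of these, 25 genes rose and 47 fell, from SMAD1 at the top to IGLL1 at the bottom.

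Depth was similar in both groups. Total counts were 11.2M to 20M in wild type and 15.1M to 23.6M in knockout, so that 3 counts correspond to 0.134 to 0.275 CPM. Wild-type replicates 3 and 4 had nearly the same counts. Their chi-square, divided by its degrees of freedom, was 2.18, where the 5 other wild-type pairs gave 44.8 to 94.2. With those 2 summed as 1 library, 35 genes rose and 104 fell, and 138 of the 313 calls were kept. Among knockout libraries, replicates 1 and 2 (22.6) and replicates 3 and 4 (50.8) were closer than the 4 pairs across them (71.3 to 129). With each of these pairs summed, 29 genes rose and 52 fell, and 78 calls were kept. Below, losses of a call are given gene by gene for left-out libraries, and those from summing the knockout pairs stand here. Of 84 called genes whose values are given by library, 46 kept the call with the pairs summed. Of the 56 whose call was kept without any 1 library, 12 lost it with the pairs summed (adjusted p 0.0501 to 0.131), namely REL, CDKN1A, LIMK1, IL15RA, MYO1G, DOCK10, IL21R, ITGA4, DHCR7, MDH2, GEMIN7 and CR2. That replicates were separate cultures is not stated in the labels, so the p-values rest on a library-to-library spread of unstated origin. Between wild-type replicates 3 and 4, at 2.18, this spread may be technical only, while all other pairs within a group lay farther apart. The sum of 10 B cell markers was 8820 to 9990 CPM in wild type and 7850 to 8770 CPM in knockout, led by CD74, CD22 and MS4A1. Of 12 T cell markers, CD2, CD8A and CD8B were at 0 in all 8 libraries, and the sum was 36.9 to 49 CPM in wild type and 69.3 to 150 CPM in knockout, led by LCK, which is described with the receptor genes below. NK cell markers summed to at most 7.1 CPM and myeloid markers to at most 8.29 CPM in any library. Epithelial and fibroblast markers, led by COL1A1, summed to 16.1 to 34.6 CPM in wild type and 5.45 to 20 CPM in knockout. Erythroid and endothelial markers, led by PECAM1, summed to at most 0.546 CPM in wild type and to 0.134 to 11.8 CPM in knockout, with HBA1, HBA2 and HBB at 0 in all 8 libraries. The part of these cell types in the results was not tested.

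The strongest call of the comparison was in the machinery that builds branched actin. WASF3, a WAVE protein that turns on the Arp2/3 nucleator, was at 0.955, 0.825, 0.819 and 0.61 CPM in wild type and 58.6, 24.8, 35.6 and 53.8 CPM in knockout. All 4 knockout libraries lay far above all 4 wild-type libraries (log2 fold change 5.75, SE 0.33, adjusted p = 1.04e-05). A share of 38.3% of its exonic bases overlaps a gene on the other strand. The WAVE subunit ABI2 also rose, from 68.2, 52, 68.8 and 66.4 CPM to 85, 96.4, 98.1 and 101 CPM (log2 fold change 0.57, SE 0.13, adjusted p = 0.0456), although its call was lost without WT 1, 2, 3 or 4, KO 1, 2, 3 or 4 or Daudi KO 1 or 2 (adjusted p 0.0575 to 0.144) and 38.1% of its exonic bases overlap a gene on the other strand. NCKAP1, the subunit that holds the WAVE complex together in many tissues, fell from 1.61, 1.83, 2.84 and 2.5 CPM to 0.312, 0.135, 0.246 and 0.534 CPM (log2 fold change -2.79, SE 0.43, adjusted p = 0.00573). NHSL1, which binds the WAVE complex, was at 11.9, 9.99, 8.47 and 7.65 CPM in wild type and 0.49, 0.203, 0 and 0 CPM in knockout. In knockout replicates 3 and 4 no read was counted for it, and in the others it was below 0.5 CPM (log2 fold change -5.63, SE 0.71, adjusted p = 0.00183).

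In the list of actin regulators, 3 of 55 tested members rose and 4 fell, with a median of -0.17 on the log2 scale. The third risen member was SHROOM3, which ties actin to the apical side of epithelial cells, at 9.43, 4.22, 2.51 and 2.72 CPM in wild type and 29.8, 17.9, 15 and 14.9 CPM in knockout (log2 fold change 2.04, SE 0.43, adjusted p = 0.0296). Wild-type replicate 1 stood above the other 3, and the call was lost without WT 2, 3 or 4 or KO 1, 2 or 3 (adjusted p 0.054 to 0.114). The remaining fallen members were PLS1, an actin-bundling plastin (log2 fold change -0.85, adjusted p = 0.0296), and TMSB10, which binds actin monomers (log2 fold change -0.65, adjusted p = 0.047). PLS1 lost its call without WT 3 or 4 or KO 1, 2 or 3 (adjusted p 0.0795 to 0.114) and TMSB10 without WT 2, 3 or 4, KO 1, 2 or 4 or Daudi KO 1 or 2 (adjusted p 0.0705 to 0.141).

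RHOF, a GTPase that drives filopodia, was at 59.3, 62.4, 67.2 and 64.1 CPM in wild type and 26, 26.1, 28.7 and 32.2 CPM in knockout. The 4 knockout libraries lay within 26 to 32.2 CPM, clear of wild type (log2 fold change -1.16, SE 0.13, adjusted p = 0.001), but 69.2% of its exonic bases lie under exons of the other strand and 27.9% under those of another gene on its own strand. DOCK10, an exchange factor for CDC42 and RAC, fell from 61.2, 53, 52.9 and 55.7 CPM to 21.5, 14.3, 10 and 8.87 CPM (log2 fold change -2.02, SE 0.35, adjusted p = 0.0107). CDC42EP3, an effector of CDC42, fell by 1.46 and ARHGAP9, a GTPase-activating protein of blood cells, by 1.32 on the log2 scale (adjusted p = 0.00358 and 0.00419). ARHGAP25, another GTPase-activating protein, fell from 66.5, 54.3, 60.8 and 61.4 CPM to 33.7, 25, 26.9 and 13.1 CPM (adjusted p = 0.0263), and its call was lost without WT 1, 3 or 4 or KO 2 or 3 (adjusted p 0.0506 to 0.0748). ABR, which carries both an exchange and a GTPase-activating domain, rose from 102, 87.1, 58.7 and 57.8 CPM to 262, 252, 237 and 291 CPM (log2 fold change 1.77, SE 0.18, adjusted p = 0.001). Wild-type replicates 3 and 4 were the lowest for ABR, and the knockout libraries still stood above the other pair. PHACTR1, a regulator of actin and of protein phosphatase 1, fell from 76.2, 50.1, 42 and 43.8 CPM to 11.7, 13.9, 5.22 and 3.63 CPM (log2 fold change -2.62, SE 0.40, adjusted p = 0.00544), further in knockout replicates 3 and 4 than in 1 and 2.

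**Figure D2:**
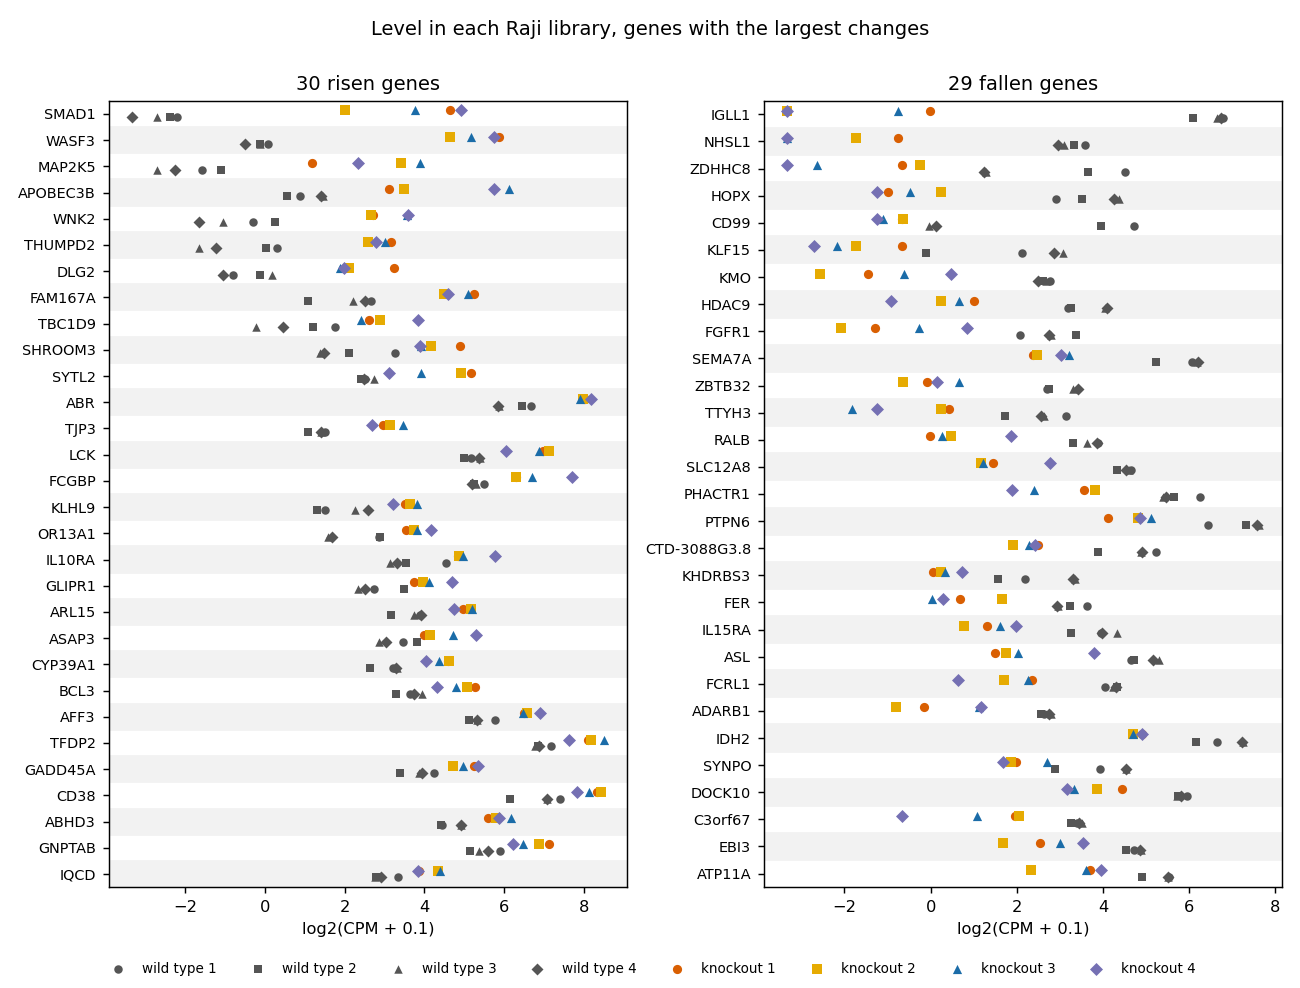
Level of 30 risen genes (left) and 29 fallen genes (right) with the largest log2 fold changes among called genes whose higher group has a mean of 5 CPM or more and whose groups do not overlap; each point is 1 library, the x axis is log2(CPM + 0.1), grey marks wild type and colours mark the knockout libraries. WASF3 has the smallest adjusted p, at 0.61 to 0.955 CPM in wild type and 24.8 to 58.6 CPM in knockout.

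Of the genes listed for the B cell receptor and for its pre-B form, few were called, mostly as fallen. IGLL1, the lambda5 part of the surrogate light chain that pre-B cells carry, was at 111, 67.7, 99.6 and 107 CPM in wild type and 0.892, 0, 0.491 and 0 CPM in knockout. It was close to absent in every knockout library (log2 fold change -7.98, SE 0.64, adjusted p = 0.000351), and was the 1 call among 9 tested genes of the pre-B receptor and recombination. In the list drawn up for dampening components of the receptor, 2 of 21 tested members fell and 1 rose, with a median of -0.29. Of the 21, 8 had all 4 knockout libraries below wild type (5.99% of all tested genes did, and 5.8% had all 4 above). Membership does not show that a gene dampens the signal, and FCRL1 in particular was counted here without such a role being shown. PTPN6, the phosphatase SHP-1 that ends receptor signals, was at 87, 159, 196 and 191 CPM in wild type and 17.3, 27.9, 34.8 and 28.7 CPM in knockout. Wild-type replicate 1 was the lowest of its group at 87 CPM, which is still above the highest knockout library (log2 fold change -2.54, SE 0.27, adjusted p = 0.001). FCRL1, an Fc receptor-like surface protein of B cells, fell from 16.5, 20, 18.8 and 19.6 CPM to 4.99, 3.18, 4.73 and 1.44 CPM (log2 fold change -2.38, SE 0.43, adjusted p = 0.0133), and its call was lost without KO 2 (adjusted p 0.0516). PTPN22, a phosphatase acting on Src-family kinases, rose from 41.7, 36.6, 46.5 and 47.2 CPM to 85, 81.9, 56.4 and 64.4 CPM (log2 fold change 0.74, SE 0.16, adjusted p = 0.0315), but lost its call without WT 1, 2, 3 or 4, KO 1 or 2 or Daudi KO 1 or 2 (adjusted p 0.0525 to 0.0935). CD22, an inhibitory receptor of the same list, was at 1041, 799, 1084 and 1022 CPM in wild type and 728, 723, 630.3 and 504 CPM in knockout, with no overlap but an adjusted p of 0.0885.

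Of 25 activating components of the receptor, 0 rose and 2 fell, with a median of -0.22. CR2, the complement receptor CD21 of the co-receptor complex, was at 455, 315, 551 and 538 CPM in wild type and 190.2, 208, 205 and 187 CPM in knockout. The 4 knockout libraries lay within 187 to 208 CPM while wild type spread from 315 to 551 CPM (log2 fold change -1.23, SE 0.22, adjusted p = 0.0119), and with the knockout pairs summed the adjusted p was 0.131. PIK3AP1, the adaptor that brings PI3K to the receptor, fell by 0.58 (adjusted p = 0.0435), a call lost without WT 2, 3 or 4 or KO 1, 2, 3 or 4 (adjusted p 0.0518 to 0.144). LAT2, an adaptor phosphorylated after receptor binding and named here after its values were seen, fell from 126, 97, 100.2 and 96.3 CPM to 41.1, 33.1, 30.1 and 38.7 CPM (log2 fold change -1.55, SE 0.15, adjusted p = 0.000885). LCK, a Src-family kinase best known from T cells, rose from 35.6, 32, 41.8 and 41 CPM to 125, 140, 118 and 65.7 CPM (log2 fold change 1.57, SE 0.27, adjusted p = 0.0117). It was the 1 called gene of 6 tested T cell markers, of which 5 had a positive difference, with a median of 1.67. The markers of this list with the highest levels were LCK, CD247 and TRAT1, while CD2, CD8A and CD8B were at 0. INPP4B, which removes a phosphate from PI3K products, was the 1 call among 34 tested members of the PI3K, AKT and mTOR list and fell from 5.49, 4.95, 4.04 and 5.32 CPM to 0.0892, 0, 0.184 and 0 CPM (log2 fold change -6.04, SE 0.79, adjusted p = 0.00344).

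Among 40 tested transcription factors of B cells, 1 rose and 3 fell, with a median of -0.05. IKZF3, the Ikaros family factor Aiolos, rose from 280, 243, 237 and 237 CPM to 395, 514, 377 and 445 CPM (log2 fold change 0.79, SE 0.12, adjusted p = 0.00614). ZBTB32, a BTB zinc-finger repressor of the same protein class as BCL6, fell from 6.39, 6.6, 9.78 and 10.6 CPM to 0.847, 0.541, 1.47 and 1.01 CPM (log2 fold change -3.10, SE 0.34, adjusted p = 0.001). KLF15, a Kruppel-like factor, was at 4.24, 0.825, 8.36 and 7.21 CPM in wild type and 0.535, 0.203, 0.123 and 0.0534 CPM in knockout. Wild-type replicate 2, at 0.825 CPM, was the lowest of its group and stood next to the highest knockout library (log2 fold change -4.40, SE 0.79, adjusted p = 0.013), and the call was lost without KO 2 (adjusted p 0.0515). The third fallen factor was BCL6 itself.

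Homeobox and Kruppel-like factors gave 1 risen and 3 fallen genes of 29 tested. HOPX, an atypical homeodomain protein without DNA binding of its own, fell from 7.46, 11.4, 20.6 and 19.1 CPM to 0.401, 1.08, 0.614 and 0.321 CPM (log2 fold change -4.62, SE 0.49, adjusted p = 0.00165). CUX2, a cut-homeobox factor, fell by 3.57 (adjusted p = 0.0133), and its call was lost without KO 2 (adjusted p 0.0515). KLF3, a repressor, was at 0.298, 0.183, 0.655 and 0.166 CPM in wild type and 9.01, 4.53, 0.798 and 4.17 CPM in knockout (log2 fold change 3.77, SE 0.75, adjusted p = 0.0278). Knockout replicate 3 stood just above the highest wild-type library, and the call was lost without WT 1, 2 or 4 or KO 1 or 2 (adjusted p 0.0585 to 0.1).

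BCL6 works through corepressors, and of 30 tested genes of that group 1 rose and 2 fell, with a median of 0.03. HDAC9, a class IIa histone deacetylase, fell from 9.07, 9.44, 16.3 and 17 CPM to 1.92, 1.08, 1.47 and 0.427 CPM (log2 fold change -3.39, SE 0.40, adjusted p = 0.00148). HDAC7, a deacetylase of the same class, moved the other way, from 201, 167, 145 and 137 CPM to 353, 339, 268 and 246 CPM (log2 fold change 0.89, SE 0.17, adjusted p = 0.0156), with a call that was lost without WT 3 or 4 or KO 2 (adjusted p 0.0576 to 0.0792). Of 29 tested genes reported elsewhere as repressed by BCL6, 1 rose (CD38) and 5 fell (PTPN6, CCL3, KMO, CDKN1A and EBI3). The median of this list was -0.25, and 11 of its members had all 4 knockout libraries below wild type. A p53 target that is also on it, CDKN1A, the cell cycle inhibitor p21, fell from 63.5, 58.2, 49.6 and 47.4 CPM to 24.4, 21.6, 32.8 and 18.5 CPM (log2 fold change -1.17, SE 0.20, adjusted p = 0.0117).

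Genes that mark the zones of the germinal centre moved in both directions. Of 21 tested dark zone genes, 1 rose and 0 fell, with a median of 0.22. It was MME, the surface peptidase CD10, at 147, 99.4, 136 and 132 CPM in wild type and 290.5, 347, 269 and 222 CPM in knockout (log2 fold change 1.13, SE 0.16, adjusted p = 0.00358). Of 27 tested genes of the light zone and of activation, 0 rose and 3 fell, with a median of -0.42. SEMA7A, a membrane-anchored semaphorin, fell from 66.7, 37.7, 72.7 and 73.8 CPM to 5.08, 5.41, 9.15 and 8.01 CPM, and all 4 knockout libraries were below 10 CPM (log2 fold change -3.18, SE 0.26, adjusted p = 0.000257). SLAMF1, a homophilic receptor of activated lymphocytes, fell by 1.05 (adjusted p = 0.023), a call lost without WT 2 or KO 1 or 2 (adjusted p 0.0552 to 0.0752). EBI3, a subunit of heterodimeric cytokines, fell from 26.1, 23, 29.6 and 29.1 CPM to 5.75, 3.11, 7.98 and 11.4 CPM (adjusted p = 0.0296), and its call was lost without WT 1, 2, 3 or 4 or KO 1, 2 or 3 (adjusted p 0.0525 to 0.0968). CD38, an NAD-consuming surface enzyme of germinal centre and plasma cells, was at 168, 70.9, 135 and 134 CPM in wild type and 318, 344, 279 and 225 CPM in knockout (log2 fold change 1.20, SE 0.25, adjusted p = 0.0294). Wild-type replicate 2 was the lowest, and the call was lost without WT 3 or 4 or KO 1, 2 or 3 (adjusted p 0.0664 to 0.0955).

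**Figure D3:**
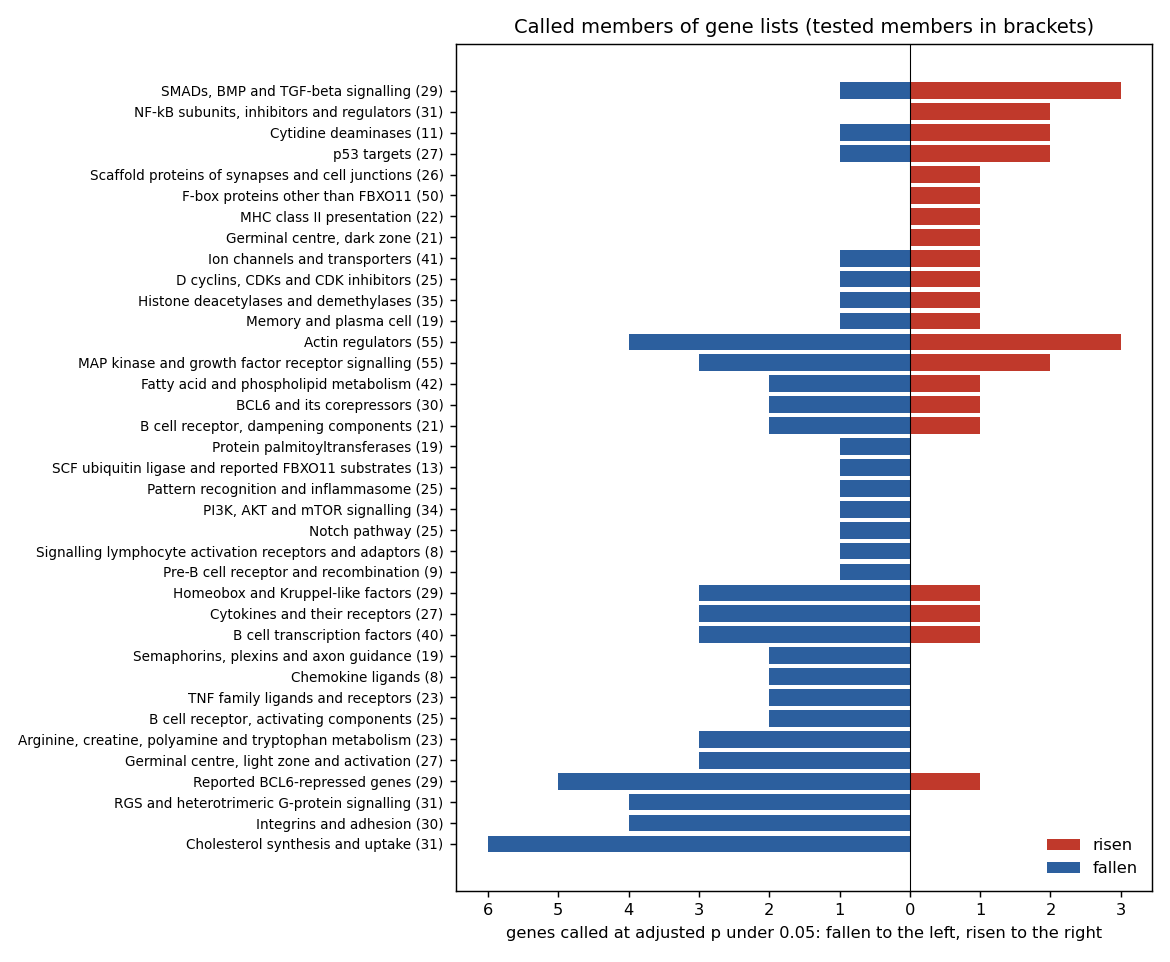
Called members of gene lists with at least 1 call: bars to the right count risen genes and bars to the left fallen genes, with the number of tested members in brackets after the name. Cholesterol synthesis has 6 fallen and 0 risen of 31, and SMAD and TGF-beta signalling 3 risen and 1 fallen of 29.

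In the TGF-beta and BMP pathway, ligands of the family signal through receptor kinases to SMAD proteins, and 3 of 29 tested members rose and 1 fell (median 0.18). SMAD1, the transducer of BMP signals, was counted with at most 0.119 CPM in wild type (0.119, 0.0917, 0.0546 and 0 CPM) and at 24.9, 3.92, 13.5 and 30.1 CPM in knockout. The knockout libraries differed among themselves, with replicate 2 the lowest, and all lay above wild type (log2 fold change 8.03, SE 0.80, adjusted p = 0.000935). LTBP1, which anchors latent TGF-beta in the matrix, rose from 64.9, 49.6, 46.9 and 45.5 CPM to 124, 106, 105 and 109 CPM (log2 fold change 1.11, SE 0.13, adjusted p = 0.00149). TGFBR1, the type I receptor, rose by 0.94 on the log2 scale (adjusted p = 0.0327), a call lost without WT 2, 3 or 4 or KO 1, 2 or 4 (adjusted p 0.0588 to 0.143). The ligand GDF15 fell, at 3.94, 0.367, 1.37 and 1.94 CPM in wild type and 0.134, 0.0677, 0 and 0 CPM in knockout (adjusted p = 0.0288), a call lost without WT 1, 3 or 4 or KO 2, 3 or 4 (adjusted p 0.0516 to 0.0851).

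Of 55 tested genes of MAP kinase and growth factor receptor signalling, 2 rose and 3 fell (median -0.01). MAP2K5, the kinase that activates ERK5, was at 0.239, 0.367, 0.0546 and 0.111 CPM in wild type and 2.18, 10.6, 14.6 and 4.97 CPM in knockout (log2 fold change 5.47, SE 0.69, adjusted p = 0.00183). WNK2, a kinase that restrains ERK signalling and regulates chloride transport, was at 0.716, 1.1, 0.382 and 0.222 CPM in wild type and 6.47, 6.23, 11.7 and 12 CPM in knockout (log2 fold change 4.00, SE 0.45, adjusted p = 0.001). Both were at 1.1 CPM or less in wild type and above 2 CPM in each knockout library. CSF1R, the receptor for colony-stimulating factor 1, fell from 1.01, 1.1, 1.69 and 1.22 CPM to 0.0892, 0.135, 0.307 and 0.0534 CPM (log2 fold change -3.11, SE 0.46, adjusted p = 0.00468). MAP2K3, a kinase upstream of p38, fell by 0.98 (SE 0.16, adjusted p = 0.00758). FGFR1, a fibroblast growth factor receptor, was at 4.12, 10.3, 6.88 and 6.6 CPM in wild type and 0.312, 0.135, 0.737 and 1.71 CPM in knockout, and its call (adjusted p = 0.0255) was lost without WT 2, 3 or 4 or KO 1, 2 or 3 (adjusted p 0.0515 to 0.0744).

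Cytokine signalling showed 1 risen and 3 fallen genes of 27 tested, with a median of 0.14. IL15RA, which presents interleukin 15, fell from 15.4, 9.54, 19.9 and 15.6 CPM to 2.36, 1.62, 2.95 and 3.85 CPM (log2 fold change -2.48, SE 0.38, adjusted p = 0.00561). IL21R, the receptor for the follicular helper cytokine interleukin 21, fell from 171, 158, 185 and 181 CPM to 114, 90.5, 117 and 101 CPM (log2 fold change -0.71, SE 0.13, adjusted p = 0.0121), with 23.3% of its exonic bases also in a gene on the other strand. EBI3, above, was the third. IL10RA, the ligand-binding chain for interleukin 10, rose to 28.8, 29.2, 31.3 and 54.3 CPM from 23.2, 11.5, 8.68 and 9.82 CPM. Knockout replicate 4 was the highest and wild-type replicate 1 the highest of its group, and the call (adjusted p = 0.0395) was lost without WT 2, 3 or 4, KO 1, 2, 3 or 4 or Daudi KO 1 or 2 (adjusted p 0.0604 to 0.155).

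Among 23 tested TNF family ligands and receptors, 0 rose and 2 fell, with a median of -0.32. The costimulatory receptor TNFRSF9 was at 5.25, 3.76, 4.92 and 4.44 CPM in wild type and 0.401, 0.406, 1.6 and 0.374 CPM in knockout, with knockout replicate 3 above the other 3. Lymphotoxin alpha (LTA) fell by 1.07. The first lost its call (adjusted p = 0.0288) without WT 3 or 4 or KO 1, 2 or 4 (adjusted p 0.0503 to 0.0867), and the second (adjusted p = 0.0326) without WT 3 or 4, KO 1, 2, 3 or 4 or Daudi KO 1 or 2 (adjusted p 0.0528 to 0.122).

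Of 8 tested chemokine ligands, 2 fell, 0 rose, and the median was -1.53. CCL3, a macrophage inflammatory protein secreted by activated B cells, fell from 1.73, 2.38, 5.24 and 5.88 CPM to 0.0892, 0.0677, 0.184 and 0.0534 CPM (log2 fold change -5.20, SE 0.62, adjusted p = 0.00149). Exons on the other strand overlap 74.6% of its exonic bases. CCL5 was at 0.656, 0.275, 3.33 and 3.6 CPM in wild type and 0.223, 0.338, 0.123 and 0.0534 CPM in knockout. The 2 groups overlapped for CCL5, with wild-type replicate 2 below knockout replicate 2, and its call (adjusted p = 0.0479) was lost without WT 3 or 4, KO 1, 2, 3 or 4, Daudi WT 1 or 2 or Daudi KO 1 or 2 (adjusted p 0.0546 to 0.155). Receptors that position B cells gave 0 calls among 20 tested, with a median of -0.48, and 6 of them had all 4 knockout libraries below wild type. Of these receptors 6 had an unadjusted p under 0.05 in edgeR, DESeq2 called 4 fallen, and limma-voom called 3 risen and 6 fallen. Over all genes DESeq2 called 315 risen and 502 fallen, and limma-voom 1815 and 1704 of the 12027. Counts from these tools, here and in the lists below, are read against these totals and not against edgeR's shares.

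Receptors of chemokines signal through heterotrimeric G proteins, which RGS proteins switch off. Of 31 tested members of this group, 0 rose and 4 fell (median -0.30). RGS19 fell from 139, 80.9, 127 and 124 CPM to 46.7, 38.8, 31.2 and 38.4 CPM (log2 fold change -1.60, SE 0.18, adjusted p = 0.001). RGS3 fell by 0.93 (adjusted p = 0.00704). The alpha subunits GNAI2 and GNAZ fell by 0.59 and 1.03 (adjusted p = 0.0296 and 0.0368). GNAI2 lost its call without WT 2, 3 or 4 or KO 1, 2 or 4 (adjusted p 0.0526 to 0.0981), and GNAZ without WT 1, 3 or 4 or KO 1, 2 or 3 (adjusted p 0.0754 to 0.122).

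Adhesion molecules gave 0 risen and 4 fallen genes of 30 tested, with a median of -0.43, and 8 of the 30 had all 4 knockout libraries below wild type. ITGA4, the alpha 4 integrin chain of VLA-4, was at 131, 124, 125 and 133 CPM in wild type and 84.8, 84.4, 81.9 and 83.4 CPM in knockout. Both groups were narrow and did not overlap (log2 fold change -0.62, SE 0.10, adjusted p = 0.00828). VIM, the intermediate filament protein vimentin, fell from 164, 209, 241 and 245 CPM to 82.9, 100.1, 90.4 and 60.7 CPM (log2 fold change -1.36, SE 0.21, adjusted p = 0.00573), with 24.4% of its exonic bases also in a gene on the other strand. LGALS9, the lectin galectin 9, fell by 1.85 (adjusted p = 0.0116). CD99, a surface glycoprotein whose gene lies on both sex chromosomes, was at 26.3, 15.5, 0.874 and 0.998 CPM in wild type and 0.535, 0.541, 0.368 and 0.321 CPM in knockout. Wild type was split for CD99, with replicates 1 and 2 high and replicates 3 and 4 close to the knockout libraries, and its call (adjusted p = 0.0353) was lost without WT 1 or 2, KO 1, 2, 3 or 4 or Daudi KO 1 or 2 (adjusted p 0.0571 to 0.0998). NRP2, a semaphorin co-receptor, fell by 1.68 (adjusted p = 0.0278), a call lost without WT 1, 3 or 4 or KO 1, 2 or 3 (adjusted p 0.0574 to 0.0818).

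NF-kB genes gave 2 risen and 0 fallen of 31 tested, with a median of 0.02. REL, the subunit c-Rel that germinal centre B cells use, rose from 90.8, 103, 80.9 and 84.5 CPM to 138, 181, 145 and 151 CPM (log2 fold change 0.78, SE 0.13, adjusted p = 0.00758), and 43.3% of its exonic bases also belong to another gene on the same strand. BCL3, an IkB-like nuclear partner of the p50 and p52 subunits, rose from 12.4, 9.72, 15.3 and 13.2 CPM to 38.1, 33.6, 27.5 and 20 CPM (log2 fold change 1.23, SE 0.25, adjusted p = 0.0278), but its call was lost without WT 1, 2, 3 or 4 or KO 1, 2 or 3 (adjusted p 0.0569 to 0.0881). In the list of pattern recognition and inflammasome genes, 1 of 25 fell and 0 rose. It was CASP1, the protease that matures interleukin 1 beta, which went from 2.21, 3.3, 2.29 and 3.77 CPM to 0.357, 0.271, 0.798 and 0.214 CPM (log2 fold change -2.81, SE 0.46, adjusted p = 0.0079).

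APOBEC3 enzymes deaminate cytidine in single-stranded DNA. Of 11 tested deaminases 2 rose and 1 fell, with a median of -0.40. APOBEC3B, the nuclear member, was at 1.73, 1.38, 2.68 and 2.55 CPM in wild type and 8.56, 11.2, 68.9 and 53.2 CPM in knockout (log2 fold change 4.06, SE 0.71, adjusted p = 0.0117). Knockout replicates 3 and 4 were well above replicates 1 and 2, and these were above wild type. APOBEC3A had no read in wild type and 0.312, 0.406, 1.66 and 1.66 CPM, 71 reads in all. Set against a floor of 3 counts over the group this is at least 21-fold higher, a call (adjusted p = 0.0368) that was lost without WT 1, 2, 3 or 4 or KO 2 (adjusted p 0.0585 to 0.0959). Without KO 3 or 4 and with the knockout pairs summed, the filter on low counts left it untested. APOBEC3C fell by 0.69 (adjusted p = 0.0288), a call lost without WT 2, 3 or 4 or KO 1 or 2 (adjusted p 0.0595 to 0.0919). The APOBEC3 genes lie side by side on chromosome 22 and are alike in sequence, so reads may have been divided among them.

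In the cell cycle and damage groups few genes moved. Of 27 tested p53 targets, 2 rose and 1 fell (CDKN1A, above), with a median of 0.06. GADD45A, a stress-induced growth arrest gene, rose from 18.7, 10.5, 14.4 and 15.4 CPM to 37.7, 26.3, 31.4 and 40.4 CPM (log2 fold change 1.20, SE 0.20, adjusted p = 0.00977). RRM2B, the p53-induced subunit of ribonucleotide reductase, rose by 0.92 (adjusted p = 0.0404), a call lost without WT 1, 2, 3 or 4, KO 1, 2 or 3 or Daudi KO 1 or 2 (adjusted p 0.0649 to 0.126). TFDP2, the dimer partner of E2F factors, rose from 143, 115, 109.6 and 118 CPM to 274, 289.7, 359.5 and 195 CPM (log2 fold change 1.21, SE 0.17, adjusted p = 0.00425). By edgeR's quasi-likelihood test 0 of 41 tested genes of DNA replication were called, with 2 at an unadjusted p under 0.05, against 1 fallen in DESeq2 and 9 fallen in limma-voom. The same test called 0 of 33 tested genes of mitosis, with 2 at an unadjusted p under 0.05, against 0 in DESeq2 and 2 risen and 1 fallen in limma-voom. The replication genes had a median of -0.18, with 3 of 41 positive, against 6112 of 12027 for all genes. In 0 of the 41 did all 4 knockout libraries lie below wild type. Wild-type replicate 1 was the lowest of its group for these genes. PCNA, for example, was at 253, 516, 469 and 487 CPM in wild type and 255, 345, 473 and 342 CPM in knockout. The count of signs was not tested. FBXO10, another F-box protein, rose from 29.5, 21.9, 20.4 and 24.3 CPM to 57.9, 52.7, 42.8 and 45.7 CPM (log2 fold change 1.05, SE 0.15, adjusted p = 0.00344) and was the 1 call among 50 tested F-box genes other than FBXO11. Another gene on the same strand covers 48% of its exonic bases.

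Cholesterol synthesis and uptake held more fallen genes than any other list. Of 31 tested members 6 fell and 0 rose, which is 19.4% against the 1.68% of all genes, with a median of -0.26. The list was chosen with earlier results of these data known and was not tested, so these shares only describe the calls. In 13 of the 31 all 4 knockout libraries lay below wild type. ACAT2, which makes the acetoacetyl-CoA that the pathway starts from, was at 223, 209, 185 and 183 CPM in wild type and 97.2, 95.6, 115 and 93.5 CPM in knockout (log2 fold change -0.99, SE 0.14, adjusted p = 0.00343). Genes of the other strand cover 52.3% of its exonic bases. MVD, which makes isopentenyl pyrophosphate, fell from 178, 146, 140.1 and 140 CPM to 73.9, 74.5, 94 and 84.2 CPM (log2 fold change -0.89, SE 0.16, adjusted p = 0.0139), and the call was lost without KO 2 (adjusted p 0.0573). DHCR7, the last step to cholesterol, fell from 198, 187, 200.4 and 188 CPM to 119.8, 103, 126 and 130 CPM (log2 fold change -0.69, SE 0.12, adjusted p = 0.0122). The other 3 were smaller changes of 0.56 to 0.66. They were the sterol isomerase EBP, the mevalonate kinase MVK and the farnesyl pyrophosphate synthase FDPS (adjusted p = 0.0254, 0.0446 and 0.0383). EBP lost its call without WT 2, 3 or 4 or KO 1 or 2 (adjusted p 0.058 to 0.076), MVK without WT 1, 2, 3 or 4, KO 1, 2 or 4 or Daudi KO 1 or 2 (adjusted p 0.0634 to 0.139) and FDPS without WT 2, 3 or 4, KO 1, 2 or 4 or Daudi KO 1 or 2 (adjusted p 0.0625 to 0.117).

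KYNU and KMO, enzymes that break down tryptophan along the kynurenine route, fell. KYNU, kynureninase, was at 2.15, 2.75, 1.86 and 2.77 CPM in wild type and 0.134, 0.135, 0.307 and 0.107 CPM in knockout (log2 fold change -3.77, SE 0.39, adjusted p = 0.001). KMO, the monooxygenase that acts just before it, fell from 6.74, 5.96, 6.28 and 5.49 CPM to 0.268, 0.0677, 0.552 and 1.28 CPM (log2 fold change -3.46, SE 0.52, adjusted p = 0.00544), and 28.4% of its exonic bases overlap a gene on the other strand. ASL, argininosuccinate lyase of arginine synthesis, fell from 25.1, 26.2, 39.4 and 35.7 CPM to 2.72, 3.25, 3.99 and 13.8 CPM, with knockout replicate 4 the highest of its group, and the call (adjusted p = 0.016) was lost without WT 3 or 4 or KO 2 or 3 (adjusted p 0.0529 to 0.0573). These 3 were the calls among 23 tested genes of arginine, creatine, polyamine and tryptophan metabolism. IDH2, the mitochondrial NADP-dependent isocitrate dehydrogenase, fell from 99.5, 71.3, 151 and 149 CPM to 29.8, 25.8, 25.9 and 29.6 CPM (log2 fold change -2.08, SE 0.23, adjusted p = 0.001). KCNN4, the calcium-activated potassium channel of lymphocytes, fell from 8.47, 6.97, 8.52 and 9.48 CPM to 3.03, 2.5, 3.13 and 1.28 CPM (log2 fold change -1.75, SE 0.26, adjusted p = 0.00492). CLIC4, a chloride intracellular channel protein, rose by 0.66 (adjusted p = 0.0196), a call lost without WT 3 or 4 or KO 2 or 3 (adjusted p 0.0572 to 0.07). In fatty acid and phospholipid metabolism 1 of 42 tested genes rose (DGAT1) and 2 fell (SGMS1 and PLD1), and each of these 3 calls was kept in only 2 of the 8 fits that left out a Raji library.

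MHC class II genes gave 1 risen and 0 fallen of 22 tested, with a median of 0.22 and 19 members positive. The risen gene was HLA-DMA, a chain of the peptide exchanger HLA-DM, at 180.2, 169, 148 and 141 CPM in wild type and 243, 234, 264 and 289 CPM in knockout (log2 fold change 0.69, SE 0.13, adjusted p = 0.0146), and its call was lost without WT 3 or 4 (adjusted p 0.0748 to 0.0759). HLA-DMB, its partner chain, was at 228, 166, 159 and 146 CPM in wild type and 311, 270.3, 233 and 288 CPM in knockout (adjusted p = 0.0704). Of 23 tested MHC class I presentation genes edgeR called 0 and left 3 at an unadjusted p under 0.05 (median -0.18), DESeq2 called 2 fallen, and limma-voom 1 risen and 8 fallen.

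The interferon list had 0 calls among 48 tested genes in edgeR, with 7 at an unadjusted p under 0.05, and a median of -0.68 on low levels. DESeq2 called 4 of its genes fallen, and limma-voom 2 risen and 14 fallen. Their totals over all genes, 315 risen and 502 fallen in DESeq2 and 1815 and 1704 in limma-voom, are the background for these counts. The same holds for the groups that follow. IFIT3, an interferon-induced antiviral protein with one of the smallest p, was at 3.7, 1.56, 2.4 and 2.61 CPM in wild type and 0.0446, 0, 0.552 and 0.534 CPM in knockout (adjusted p = 0.0626). Its groups did not overlap, and its highest knockout library was at 0.552 CPM. Housekeeping groups held no edgeR call. Of 57 ribosomal protein genes 1 had an unadjusted p under 0.05, DESeq2 called 0 and limma-voom 2 fallen. Of 42 nuclear genes of respiratory complexes 5 had such a p, DESeq2 called 2 fallen, and limma-voom 1 risen and 16 fallen. Of 31 proteasome genes 1 had such a p, DESeq2 called 0, and limma-voom 1 risen and 8 fallen. Of 31 glycolysis genes 7 had such a p (median -0.31), DESeq2 called 0 and limma-voom 2 risen.

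The single knockout libraries were then set against wild type one by one. In 109 of the 111 risen genes all 4 knockout libraries lay above all 4 wild-type libraries, and in 200 of the 202 fallen genes all 4 lay below. In the other 4 genes (ZCCHC14 and ZNF595 risen, CCL5 and SYNGR3 fallen) 3 of the 4 did. Since a test of the group means favours genes without overlap, these counts describe the calls and are no separate support for them. The median difference of the risen genes from wild type was 0.98, 1.01, 0.76 and 0.86 on the log2 scale in knockout replicates 1 to 4. That of the fallen genes was -1.34, -1.42, -1.48 and -1.41. Since the genes were called on the mean of these same 4 libraries, the direction of these medians follows from the selection.

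With each knockout library taken as a group of its own, its spread borrowed from the other groups, far fewer genes were called. Replicate 1 gave 22 risen (0.183%) and 31 fallen (0.258%), replicate 2 gave 18 (0.15%) and 45 (0.374%), replicate 3 gave 17 (0.141%) and 41 (0.341%), and replicate 4 gave 40 (0.333%) and 68 (0.565%). These 4 comparisons share the wild-type libraries and rest on 1 library each.

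The spread among the knockout libraries differed between genes. The median range of log2 CPM over the 4 knockout libraries was 0.52 in risen genes, 0.78 in fallen genes and 0.60 over all genes tested, where the wild-type range was 0.46, 0.59 and 0.51. A knockout range over 1 was found in 20 of 111 risen, 81 of 202 fallen and 3199 of all 12027 tested genes. A wild-type range over 1 was found in 22, 50 and 2561 of them. Among called genes with a mean of 5 CPM or more in the higher group, those with narrow ranges in knockout included ITGA4, SNX27 and GEMIN7. GEMIN7, a protein of the SMN complex, was at 22.2, 22.2, 21.2 and 22.8 CPM in knockout against 37.1, 34, 34.6 and 31.9 CPM in wild type. SNX27, an endosomal sorting nexin, rose from 60.8, 55.9, 58.8 and 57.2 CPM to 76.4, 78.2, 78.4 and 75.1 CPM, by 0.40 on the log2 scale with an adjusted p of 0.0479, and the call was lost without WT 1, 2, 3 or 4, KO 1, 2, 3 or 4 or Daudi KO 1 or 2 (adjusted p 0.0585 to 0.172). CLCN3, an endosomal chloride exchanger, rose from 80.7, 73.5, 86.7 and 86.5 CPM to 118, 118, 119 and 128 CPM, with a call lost without WT 4 (adjusted p 0.0501).

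Among the same genes, taken by direction, the 5 risen genes with the widest ranges were SMAD1, MAP2K5, APOBEC3B, SYTL2 and TBC1D9, and the 5 fallen ones were IGLL1, NHSL1, KMO, FGFR1 and ZDHHC8. Over the 4 knockout libraries these 5 fallen genes had, in the same order, 28, 14, 40, 53 and 24 reads in all. Their ranges therefore rest on few counts. The order of the knockout libraries was not the same from gene to gene. Knockout replicates 3 and 4 were the farthest from wild type for APOBEC3B, replicates 1 and 2 for SYTL2, replicates 1 and 4 for SMAD1, and replicates 2 and 3 for MAP2K5. SYTL2, a synaptotagmin-like protein of vesicle transport, was at 5.61, 5.23, 6.55 and 5.49 CPM in wild type and 35.7, 30.3, 15 and 8.55 CPM in knockout (adjusted p = 0.0308), a call lost without WT 1, 2, 3 or 4 or KO 1 or 2 (adjusted p 0.0652 to 0.113). TBC1D9, a protein with a Rab GTPase-activating domain, was at 3.28, 2.2, 0.765 and 1.28 CPM in wild type and 6.02, 7.31, 5.22 and 14.2 CPM in knockout (adjusted p = 0.034), a call lost without WT 2, 3 or 4, KO 1, 2 or 4 or Daudi KO 1 or 2 (adjusted p 0.0541 to 0.132). ZDHHC8, a protein palmitoyltransferase, was at 22.7, 12.6, 2.35 and 2.27 CPM in wild type and 0.535, 0.744, 0.0614 and 0 CPM in knockout. Here too wild-type replicates 1 and 2 stood above replicates 3 and 4, and the call (adjusted p = 0.0294) was lost without WT 1 or 2 or KO 1, 2 or 3 (adjusted p 0.0587 to 0.0795).

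**Figure D4:**
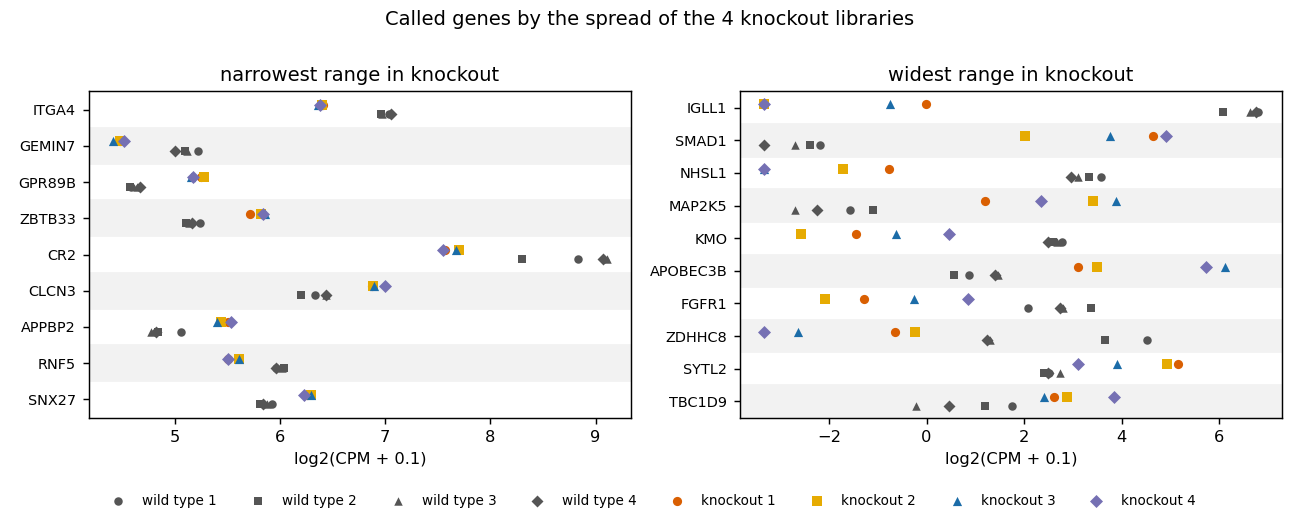
Called genes with the narrowest (left) and the widest (right) range over the 4 knockout libraries, taken within each direction among those whose higher group has a mean of 5 CPM or more; each point is 1 library on log2(CPM + 0.1), grey for wild type and coloured for knockout. ITGA4 lies within 81.9 to 84.8 CPM in knockout, whereas APOBEC3B runs from 8.56 to 68.9 CPM.

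The knockout libraries also differed in the median level of genes by chromosome, most of all for chromosome 7. Over 434 genes of chromosome 7 with a mean of at least 5 CPM, the median log2 difference from wild type, with 1 CPM added, was 0.03 and -0.02 in knockout replicates 1 and 2 and -0.41 and -0.46 in replicates 3 and 4. Each wild-type library set against the other 3 gave -0.12, -0.07, 0.08 and 0.08. Chromosome 7 held 25 fallen and 3 risen of 560 tested genes. That is 4.46% fallen, against 177 of 11433 (1.55%) elsewhere. No DNA was measured, so whether copies of chromosome 7 differ between these libraries was not tested.

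On chromosome 7, 80 of 560 tested genes had all 4 knockout libraries below wild type and 5 had all 4 above. Over all 12027 genes these were 720 and 697. A gene called as fallen on the group mean is nearly always low in all 4 knockout libraries, so the fallen genes of chromosome 7 describe the calls. Whether the shift of the chromosome entered into these calls was not tested. Their median difference from wild type was -1.20, -1.11, -1.41 and -1.16 in knockout replicates 1 to 4. In 8 of the 25 (TTYH3, HOXA5, MYO1G, LIMK1, GATAD1, AP1S1, PLOD3 and FMC1) both replicates 3 and 4 lay below 1 and 2, in 4 (GGCT, ASL, IFT22 and ZNF282) both 1 and 2 lay below 3 and 4, and 13 showed neither. The genes that follow were chosen after their values were seen. MYO1G, a haematopoietic myosin, was at 102, 94.9, 91.2 and 99.9 CPM in wild type and 38.8, 46.9, 19.2 and 21.7 CPM in knockout. LIMK1, the kinase that inactivates cofilin, was at 53.8, 82.3, 71.9 and 63.4 CPM in wild type and 34.8, 39.2, 29.1 and 32.9 CPM in knockout. MDH2, mitochondrial malate dehydrogenase, was at 499, 578, 690.1 and 654 CPM in wild type and 329, 311, 328 and 363 CPM in knockout, with no such order. ZNF282, a zinc-finger factor, was at 42, 48.6, 48.3 and 48.9 CPM in wild type and 23.6, 21.7, 24.2 and 26.3 CPM in knockout. Smaller shifts were seen on chromosome 11, at 0.23 and 0.17 in knockout replicates 1 and 2 against 0.04 and 0 in 3 and 4, and on chromosome 22, at -0.15 and -0.20 against 0.01 and 0.03.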

How the data were processed

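Polyadenylated RNA was sequenced from 8 Raji and 4 Daudi libraries. DNase-treated total RNA went into a TruSeq v2 preparation, which does not mark strand, per the labels' protocols. Listed in the submitters' processing notes are RSEM 1.3.0, STAR 2.5.0 and genome build hg38, without a role for each. What the authors deposited is 1 table of 19919 rows that holds whole-number counts of reads, neither normalised nor pooled. Whether RSEM estimates were rounded, and how reads matching several genes were counted, is not stated in the sources used here.

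These counts were tested with edgeR 4.0.16 (R 4.3.3), with its default filter (12027 genes kept, of which 224 had 0 counts in all Raji libraries), TMM scaling and a robust quasi-likelihood fit of all 12 libraries in 4 groups, with 8 residual degrees of freedom and a common biological coefficient of variation of 26.1%. P-values were adjusted by Benjamini-Hochberg over the 12027 genes, and an adjusted p under 0.05 was called. Standard errors were derived from each fold change and F value, and levels are TMM-scaled CPM. Positions come from GENCODE release 29 (11993 genes matched) and promoter sequences from RefSeq (GRCh38.p14). The chi-square of a pair of libraries used genes with at least 100 counts in the pair. Where folds are given as "at least", 3 counts stand in for a lower group total of 0. This floor covers counting error only.

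Members and gene lists were chosen with earlier results of these data known, and the lists are described without tests. Named genes are FBXO11 and BCL6, then the 30 risen and 30 fallen called genes with the largest change, a higher group mean of 5 CPM or more and no overlap. Called list members with at least 1 CPM follow, then 2 members of each list without a call, and the 5 narrowest and 5 widest called genes in each direction, from which the text gives a part. Some genes taken by this rule, and 1 list, are not reported here. Alternatives were other scaling (DESeq2 size factors), DESeq2 1.42.0, voom with quality weights in limma 3.58.1, no filter, Raji libraries alone, summed libraries and leaving out each library.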

Additional observations from a re-analysis of the deposited data

Results flagged for a closer look

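In 14 of 182 sets of 4 libraries (88 genes, 3 chromosome medians and the total counts, in wild type and in knockout) 1 library stood far from the other 3, with a gap, as a share of the whole range, above Dixon's 95% critical value. For 4 independent values chance flags about 1 set in 20. Wild-type replicates 3 and 4 were nearly alike, the knockout libraries were closer in pairs, and many genes were chosen by their values. The count of flags therefore cannot be set against that rate. In knockout, 5 of the 8 flags fell on replicate 4. It was high for ASL (13.8 CPM, others 2.72 to 3.99), RALB (3.53 CPM, others 0.892 to 1.29), SLC12A8 (6.73 CPM, others 2.17 to 2.63), IL10RA (54.3 CPM, others 28.8 to 31.3) and CLCN3 (128 CPM, others 118 to 119). Replicate 3 was high for TNFRSF9 (1.6 CPM, others 0.374 to 0.406) and KYNU (0.307 CPM, others 0.107 to 0.135). KYNU had 12 reads in all over the 4 knockout libraries, so its flag may be counting error. Replicate 1 was high for DLG2 (9.27 CPM, others 3.62 to 4.2).

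In wild type, replicate 1 was high for LAT2 (126 CPM, others 96.3 to 100), IKZF3 (280 CPM, others 237 to 243) and MVD (178 CPM, others 140 to 146), and low for ZNF282 (42 CPM, others 48.3 to 48.9). Replicate 2 was low for ABI2 (52 CPM, others 66.4 to 68.8) and ATP11A (30.1 CPM, others 45.3 to 46.5). No flag fell on wild-type replicates 3 and 4. Being nearly alike, neither could readily stand far from the other, so this absence says nothing about them.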

How the results depend on the processing

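No called gene taken by the naming rule above reversed direction under the alternatives tried (0 of their values), but the number of calls moved widely. Genes named outside that rule, such as those chosen after their values were seen, were not part of this count. Against 111 risen and 202 fallen genes, DESeq2 gave 315 and 502, and limma-voom with quality weights gave 1815 and 1704. Risen genes made up 38.6% of the DESeq2 calls and 51.6% of the limma-voom calls, so that with limma-voom more genes rose than fell. Fewer genes were called with wild-type replicates 3 and 4 summed (35 and 104, 25.2% risen) and with knockout replicates summed in pairs (29 and 52), which leave fewer libraries. Leaving out 1 library gave 37 to 159 risen and 95 to 269 fallen genes. Scaling by DESeq2 size factors (95 and 213, 30.8% risen), no filter (86 and 184) and the 8 Raji libraries alone (105 and 227) stayed within 1.5 times. The agreement of single knockout libraries, as the count of called genes without overlap, was 309, with 306 without TMM scaling and 307 with DESeq2 size factors. Over the named genes and all alternatives, 479 values lost a call and 62 gained one. No scaling moved the median of all genes by over 0.1 on the log2 scale. No paired analysis was possible because the labels give the knockout and wild-type libraries no shared replicate numbers. At these depths a level under 0.275 CPM rests on 3 counts or fewer in the shallowest library.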

Other observations

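Several of the largest changes lay outside the gene groups above. FAM167A, a gene of the BLK locus, rose from 6.27, 2.02, 4.53 and 5.6 CPM to 37.5, 22.5, 34.2 and 23.9 CPM (log2 fold change 2.66, SE 0.31, adjusted p = 0.00149). DLG2, a scaffold protein of synapses, was below 1.1 CPM in every wild-type library and at 9.27, 4.2, 3.62 and 3.85 CPM in knockout (log2 fold change 2.94, SE 0.45, adjusted p = 0.00544). TJP3, a scaffold of tight junctions, rose from 2.75, 2.02, 2.57 and 2.55 CPM to 7.71, 8.73, 10.9 and 6.3 CPM (log2 fold change 1.75, SE 0.22, adjusted p = 0.00175). THUMPD2, named for its RNA-binding domain, was at 1.13, 0.917, 0.218 and 0.333 CPM in wild type and 8.87, 5.95, 7.98 and 6.84 CPM in knockout (log2 fold change 3.55, SE 0.40, adjusted p = 0.001). All 4 rose in every knockout library, and wild-type replicates 3 and 4 were the lowest for THUMPD2 but not for the other 3 genes.

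Among fallen genes outside the groups, RALB, a GTPase of the exocyst pathway, fell from 14.6, 9.72, 12.3 and 14.4 CPM to 0.892, 1.29, 1.1 and 3.53 CPM (log2 fold change -2.90, SE 0.45, adjusted p = 0.00573). ATP11A, a phospholipid flippase, fell from 46.5, 30.1, 45.4 and 45.3 CPM to 13, 4.94, 12 and 15.4 CPM (log2 fold change -1.88, SE 0.29, adjusted p = 0.00568). FER, a cytoplasmic tyrosine kinase, fell from 12.3, 9.35, 7.65 and 7.49 CPM to 1.52, 3.04, 0.921 and 1.12 CPM (log2 fold change -2.49, SE 0.34, adjusted p = 0.00343). SLC12A8, a member of the cation chloride cotransporter family, fell from 24.9, 20, 24.3 and 22.9 CPM to 2.63, 2.17, 2.21 and 6.73 CPM (log2 fold change -2.74, SE 0.43, adjusted p = 0.00672). Knockout replicate 4 was the highest of its group for RALB, ATP11A and SLC12A8, and replicate 2 for FER.

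A few genes were at 0 in all libraries of 1 group. LSAMP, a neuronal adhesion molecule, had 89 counts over the wild-type libraries and 0 over the knockout libraries, at least 33.5-fold lower against a floor of 3 counts over the group, scaled for library size. LRRC4B, a synaptic adhesion molecule, had 55 and 0, at least 20.7-fold lower. GIMAP4, a GTPase of lymphocytes, had 0 and 99, at least 29.2-fold higher, with knockout libraries at 0.49, 0.338, 1.41 and 3.21 CPM. The call of LSAMP was kept in all 8 fits that left out a Raji library, that of LRRC4B in 1 and that of GIMAP4 in 3, and with the knockout pairs summed the adjusted p was 0.131 for LRRC4B and 0.107 for GIMAP4. These 3 were named after their values were seen.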
